A study of Mus musculus with 19 samples.

Results

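The 9 genes described here are the nucleic acid sensors Ifih1, Ddx58, Dhx58 and Zbp1, the interferon regulatory factors Irf1, Irf3, Irf7 and Irf9, and Stat2. They were selected on measured values, because differences of these arrays were already known when the genes were picked. The levels and differences of these genes are therefore given as a description. Counts of these genes past a test stand beside the share of all genes, and no support is drawn from them. All probes bearing one of these gene names were taken, which gave 17 of the 41174 probes and 9 of the 27793 gene names on the array. Ddx58 had 4 probes, Irf1, Irf3, Irf9, Ifih1 and Dhx58 had 2 each, and Irf7, Stat2 and Zbp1 had 1 each.

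Transcripts were measured on Agilent expression arrays of the mouse genome, each sample alone on its array in a single colour. C2C12 cells, a mouse myoblast line, carried stably transfected plasmids for wild-type human HDAC4 and HDAC5 (the group HDAC4&5, n = 6) or the empty plasmids (the group WT, n = 6). Both groups grew in hygromycin and geneticin at 500 µg/ml and were harvested 48 h after seeding. Whether each line was a clone or a pool was not given in the sources used here. The spread between samples of a line does not measure the spread between lines. A difference between lines therefore cannot be told apart from an effect of the plasmids. Soleus muscle came from male mice of 12 weeks, fasted for 5 h, that were db/db (the group db, C57BL6J db +/+, n = 4) or heterozygous littermates (the group Con, db -/+, n = 3). The db/db mouse lacks the signalling form of the leptin receptor in every tissue and is obese and diabetic, so that it is a model of the whole animal and not of muscle alone. The sources describe individual points as separate dishes or mice, and give fewer replicates per group than the C2C12 labels and the db labels do, so p-values measure the spread between these samples, which may in part be technical.

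Levels are log2 units relative to the 75th percentile of the same array, so that a level of 0 is the 75th percentile and a difference of 1 is a 2-fold change. The 75th percentile intensity was 401 to 1561 on the C2C12 arrays and 141 to 500 on the soleus arrays, and 46.8% to 57.5% of spots were well above background on an array. The C2C12 arrays lay on 3 slides and the soleus arrays on 2, each slide holding both groups of its tissue. The 2 soleus slides differed, with a 75th percentile intensity of 141 to 220 on the first and 423 to 500 on the second. Outlier spots numbered 151 to 623 per array on the first and 1028 to 3166 on the second. Saturated spots, at the limit of the scanner, numbered 75 to 102 and 728 to 1117. The mouse Hdac5 probe stood at 2.02 to 2.87 in WT and 3.00 to 4.61 in HDAC4&5 samples, and the mouse Hdac4 probe at 0.31 to 0.58 and 0.29 to 0.60. Whether these mouse probes bind the transcripts of the human plasmids was not tested, so they are a weak check of the labels. Muscle fibre markers were well above background on every WT array for 8 of 9 genes and on every HDAC4&5 array for 2 of 9, with Ckm, Tnni1, Myl2 and Myl3 on no HDAC4&5 array. The myoblast markers Myod1 and Myog were also on no HDAC4&5 array, so these cells lacked these markers of their labelled type. Des and Cdh15, of the same list, were on all 6 HDAC4&5 arrays, at mean levels of -2.40 and 0.47, against 6.03 and 6.13 in WT. Myf5 and Pax7 were on no array of either C2C12 group. All 9 muscle fibre markers were well above background on every soleus array on which they had a value, outlier spots having been dropped for Ckm on 1 Con array and for Acta1, Tnnt1 and Myl2 on 1 db array.

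Cells detect foreign or misplaced nucleic acid with sensor proteins. RIG-I (from Ddx58) and MDA5 (from Ifih1) are RNA helicases that bind double-stranded or otherwise unusual RNA and signal through the mitochondrial adaptor MAVS, while LGP2 (from Dhx58) is a related helicase without the signalling domain that modulates both. ZBP1 binds left-handed double-stranded nucleic acid and can trigger necroptosis. Downstream of the sensors, IRF3 and IRF7 switch on the type I interferon genes. Secreted interferon acts on its receptor and on the kinases JAK1 and TYK2, and STAT2 and IRF9 then act in the complex ISGF3, which binds the interferon-stimulated response element (ISRE) in target promoters. IRF1 is a related factor whose gene is itself switched on by interferon through a gamma-activated site (GAS). Many sensors and factors are targets of the pathway they serve, whereas IRF3 is made constantly and is controlled mainly by phosphorylation.

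The promoters of the genes are shown because these elements are the textbook route from STAT and IRF factors back to their own genes. Windows of 250 bases before to 50 bases after the transcription start were taken from RefSeq (build GRCm38.p6) for 7 of the 9 genes. Irf1 and Irf9 had 2 windows each. The letters GAAANNGAAA were searched on both strands as the core of the ISRE. They were found in 3 of the 7 genes (3 of their 9 windows) and in 3.44% of all 32851 windows of this length. The letters TTCNNNGAA read the same on both strands and stand for the GAS. They were found in 1 of the 7 genes (1 of their 9 windows) and in 8.30% of all windows. Matches are capitalised in the following stretches, each written on the strand of its gene, and positions are counted from 1 at the first transcribed base.

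Irf1, chr11:53769879-53769978, plus strand, a GAS match at positions -90 to -82: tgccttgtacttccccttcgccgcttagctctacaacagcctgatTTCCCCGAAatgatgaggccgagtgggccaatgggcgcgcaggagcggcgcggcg

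Stat2, chr10:128270248-128270347, plus strand, an ISRE core match at positions -222 to -213: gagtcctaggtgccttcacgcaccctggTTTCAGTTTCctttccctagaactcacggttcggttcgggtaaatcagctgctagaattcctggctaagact

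Ddx58, chr4:40239806-40239905, minus strand, an ISRE core match at positions 3 to 12: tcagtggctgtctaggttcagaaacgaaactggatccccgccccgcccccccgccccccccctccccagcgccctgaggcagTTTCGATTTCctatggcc

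Ifih1, chr2:62646206-62646233, minus strand, an ISRE core match at positions 33 to 42: gaagagaatcGAAACAGAAAccgatctg

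Irf7, chr7:141266425-141266524, minus strand, the last 100 bases before the start, shown as a promoter without either match: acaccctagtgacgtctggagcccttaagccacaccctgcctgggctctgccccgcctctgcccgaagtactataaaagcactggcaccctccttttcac

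Irf3, chr7:44997548-44997647, plus strand, likewise without either match, shown because this gene went the other way: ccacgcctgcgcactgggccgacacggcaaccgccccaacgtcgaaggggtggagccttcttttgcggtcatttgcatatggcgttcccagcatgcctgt

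A match is a description of the letters and not of a bound site. The absence of a match in the Irf3, Irf7 and Irf9 windows says only that these letters are not there.

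In C2C12 cells 8 of the 9 genes were higher in HDAC4&5 than in WT samples, with no overlap between the groups, and Irf3 was lower. The differences ran from 1.37 for Irf1 to 8.32 for Zbp1 on the log2 scale, that is from 2.59-fold to 321-fold. The sensors moved by 3.66 to 8.32 and the 4 factors Irf1, Irf7, Irf9 and Stat2 by 1.37 to 6.41. Each probe standing for a gene was well above background on all 12 C2C12 arrays, so each of these folds has a measured level on both sides. For genes dim in WT cells the size of the fold depended on the background correction. With another correction (normexp) the differences were 6.78 for Zbp1, 5.26 for Dhx58 and 5.09 for Irf7, where they were 8.32, 6.97 and 6.41 as reported. In limma, 8 genes passed the Benjamini-Hochberg adjusted p of 0.05 as higher, where 36.5% of the 14162 genes tested did, and 1 passed as lower, where 30.5% did. All 8 also differed by at least 2-fold, as 10.7% of all genes did in that direction. The groups did not overlap for 28.1% of all genes on the higher side and 23.7% on the lower side, against 8 and 0 of the 9 genes. This comparison was known when the genes were picked, and nothing is read from these counts.

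**Figure D1:**
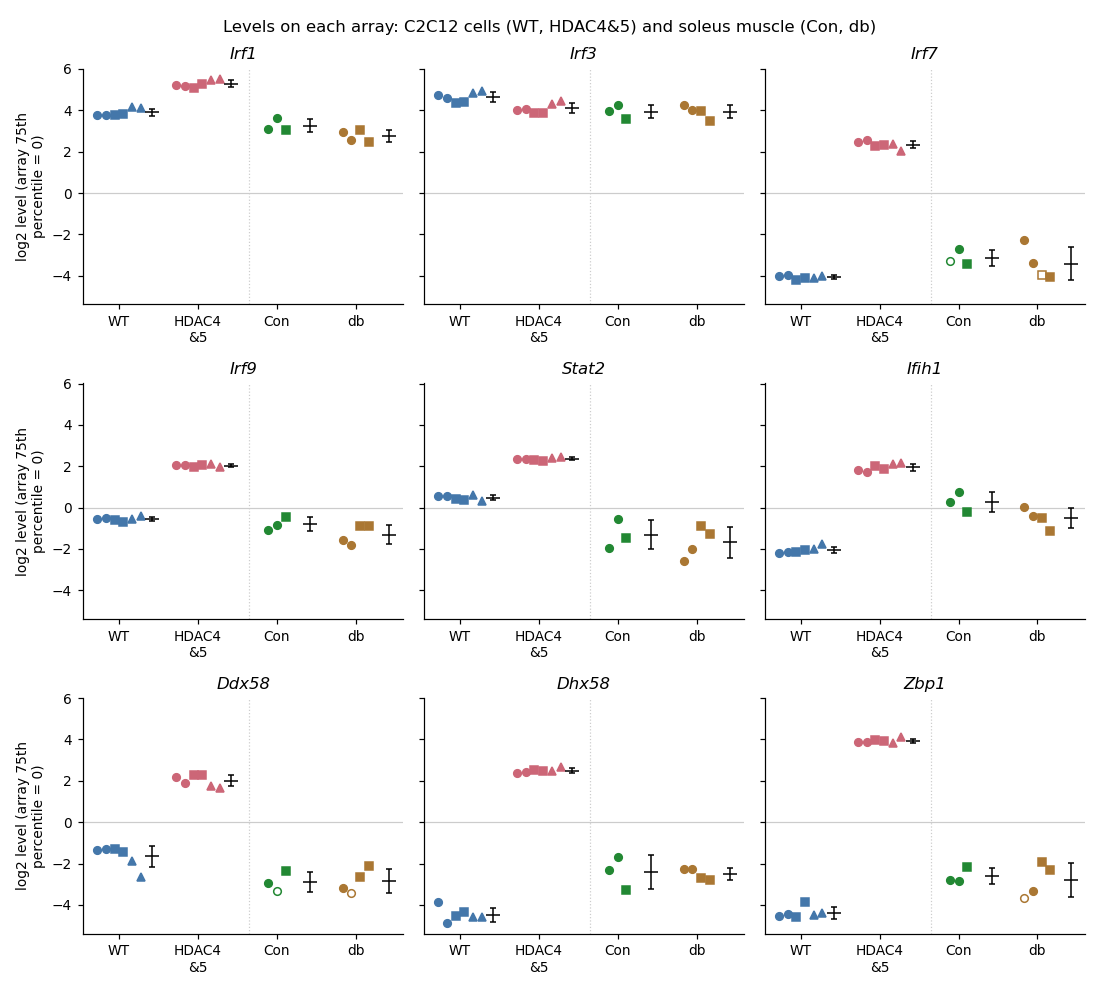
Level of each gene on every array (y axis, log2 units, 0 = the array's 75th percentile) for WT, HDAC4&5, Con and db samples. Circles, squares and triangles are arrays of slides 1, 2 and 3 of a tissue, open symbols are probes not well above background, and the black mark is the mean ± SD. All 6 HDAC4&5 arrays lay above all 6 WT arrays for each gene but Irf3, while Con and db values overlapped for all 9.

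Among the sensors, the difference was largest for Zbp1. Its level was -4.60 at the lowest, -4.46 at the median and -3.84 at the highest of the WT arrays, and 3.85, 3.92 and 4.13 in HDAC4&5 samples. WT cells thus sat far below the 75th percentile of their arrays and HDAC4&5 cells far above it. The difference was 8.32 ± 0.12 (SE of the fit, n = 6 and 6), or 321-fold. The single Zbp1 probe lies at chr2:173032113-173032170 on mm9, the build of the probe positions in the scanner files.

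Dhx58, the gene of LGP2, ranged from -4.87 to -3.88 in WT (median -4.57) and from 2.38 to 2.67 in HDAC4&5 samples (median 2.49). The difference was 6.97 ± 0.13, or 125-fold, at chr11:100556271-100556330. This rests on 1 probe, because the second Dhx58 probe was not well above background on any of the 19 arrays and gives no fold.

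Ifih1, the gene of MDA5, ranged from -2.20 to -1.76 in WT (median -2.09) and from 1.72 to 2.16 in HDAC4&5 samples (median 1.92). The difference was 3.99 ± 0.09, or 15.9-fold, at chr2:62435621-62435680. The second Ifih1 probe, whose position spans 2148 bases, was well above background on 0 WT and 6 HDAC4&5 arrays and was at least 2.80-fold higher. Such a bound sets the mean of the brighter group against the dimmest signal still above background on each array of the other.

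Ddx58, the gene of RIG-I, ranged from -2.63 to -1.31 in WT (median -1.39) and from 1.64 to 2.29 in HDAC4&5 samples (median 2.04). Its WT values had the widest spread of the 9 genes, SD 0.53, and the lowest was WT replicate 6. The difference was 3.66 ± 0.22, or 12.6-fold, at chr4:40156918-40156977. Both other Ddx58 probes that were well above background on all 12 arrays gave 3.92 ± 0.07 and 3.73 ± 0.15 (SE of the probe). The fourth, on 0 WT and 6 HDAC4&5 arrays, was at least 3.01-fold higher. All 4 probes of this gene therefore had every HDAC4&5 array above every WT array.

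Irf7, the factor that amplifies the type I interferon genes and is itself a target of ISGF3, had the largest difference of the transcription factors. It ranged from -4.20 to -3.98 in WT (median -4.06) and from 2.03 to 2.56 in HDAC4&5 samples (median 2.35). The difference was 6.41 ± 0.08, or 84.9-fold, from 1 probe at chr7:148450664-148451014. The WT values spread little, with an SD of 0.09.

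Irf9 and Stat2, a DNA-binding subunit and the transactivating subunit of ISGF3, moved less. Irf9 ranged from -0.69 to -0.43 in WT (median -0.54) and from 1.95 to 2.09 in HDAC4&5 samples (median 2.06), a difference of 2.58 ± 0.05 or 5.97-fold, at chr14:56228256-56228315. The second Irf9 probe, well above background on 3 of 6 WT arrays, gave 2.97 ± 0.13. Stat2 ranged from 0.30 to 0.63 in WT (median 0.49) and from 2.24 to 2.45 in HDAC4&5 samples (median 2.37), a difference of 1.88 ± 0.07 or 3.68-fold, at chr10:127729181-127729240. Neither gene came near an overlap between the groups.

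Irf1, the GAS-driven factor, was already high in WT cells. It ranged from 3.79 to 4.16 in WT (median 3.81) and from 5.09 to 5.50 in HDAC4&5 samples (median 5.23), a difference of 1.37 ± 0.10 or 2.59-fold, at chr11:53590715-53590774. The second Irf1 probe gave 1.47 ± 0.16. This was the smallest of the 8 higher differences.

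Irf3, the constantly made factor that sensors activate through MAVS and STING, was the exception. It ranged from 4.35 to 4.91 in WT (median 4.65) and from 3.88 to 4.47 in HDAC4&5 samples (median 4.05), a difference of -0.53 ± 0.13, at chr7:52257673-52257732. The groups overlapped, since the highest HDAC4&5 array was above the lowest WT array, but these arrays were on different slides. The second Irf3 probe gave -0.37 ± 0.15 and also overlapped.

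**Figure D2:**
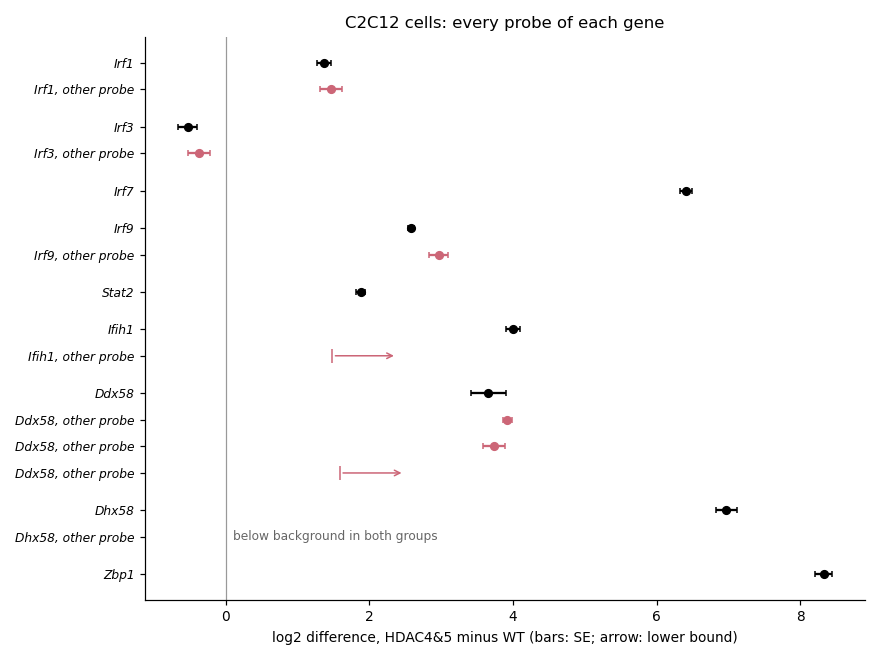
Log2 difference of HDAC4&5 minus WT (x axis) for every probe of each gene (y axis), with the SE of the probe as bars. Black points are the probes that stand for the gene, red points other probes, and arrows start at the lower bound of probes on no WT array above background. Probes of a gene lay on the same side of 0, with Irf3 alone below it.

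Slides moved the levels of some genes more than those of others, and no difference between groups changed its direction from slide to slide. The differences within the 3 slides were 8.37, 8.17 and 8.43 for Zbp1, 6.77, 6.97 and 7.17 for Dhx58, and 6.51, 6.46 and 6.26 for Irf7. For Ddx58 they were 3.38, 3.64 and 3.95, the widest relative range among the 8 higher genes. For Irf3 they were -0.60, -0.50 and -0.50, and within each slide both HDAC4&5 arrays lay below both WT arrays. Differences between slides made up 94.0% of the spread within groups for Irf1 and 94.5% for Irf3, against 13.3% for Dhx58 and 22.7% for Zbp1.

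Within groups the 9 genes did not move as one. After each array's level was set against the mean of its own group, the 36 pairs of genes had Pearson correlations over the 12 C2C12 arrays from -0.79 to 0.84, with a median of -0.01 and 17 above 0. Irf1 and Irf3 gave the highest value and Irf1 and Ddx58 the lowest. The genes most like each member in this measure, among 11161 other genes, were Prkd2 (0.99) and Mapk7 (0.99) for Irf3, Rab5a (0.98) and the probe NAP099398-001 (0.99) for Irf1, and Plec (0.98) and Ppig (0.98) for Ddx58. For Ifih1 they were Fchsd2 (0.97) and Opn3 (0.97). The others were Apol8 (0.94) and Hectd2 (0.90) for Zbp1, Dhrs11 (0.92) and Gcc1 (0.92) for Dhx58, Arsb (0.91) and Gdpd5 (0.86) for Stat2, Gm15645 (0.90) and Actn1 (0.89) for Irf7, and Cfap97 (0.90) and Palb2 (0.89) for Irf9. These arrays share slides in groups of 4, so the values describe these arrays and carry no p. Slide was not taken out, so differences between slides cannot be told apart from genes moving together or apart.

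The rest of the pathway was read from lists of other genes, none of them among the 9. Like the 9 genes, the lists were drawn up with earlier results of these arrays known. Of 130 list genes tested in C2C12 cells, 88 rose and 20 fell in HDAC4&5 samples at the adjusted p of 0.05 in limma, where 36.5% of all genes rose and 30.5% fell. The median difference of all 14162 genes was 0.08. Genes above background in 1 group only had entered the test through that group, so their adjusted p rests on background values on the other side and is given beside a bound. Where some arrays of a group were above background, their number is given, and the difference rests in part on background values.

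The interferon ligands are mostly silent without a trigger, and 5 of 13 on the array could be tested. Ifnb1, the gene of interferon beta, rose, being well above background on 0 WT and 6 HDAC4&5 arrays and at least 3.81-fold higher (adjusted p = 6.87e-11). It was not called with the deposited matrix. The filter on both groups leaves it out of the test, since it was above background on 0 WT arrays. Ifnz fell by 0.57, and the other 3 ligands did not pass. The median of this list was 0.17. Probes of the near-identical alpha interferon genes may bind each other's transcripts, which was not tested.

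Receptors, kinases and brakes of interferon signalling went both ways, 5 of 18 rising and 8 falling, with a median of -0.14, against the shares of all genes just given. The count falling was 5 without HDAC4&5 replicate 3, 5 without HDAC4&5 replicate 4 and 5 with no filter. Usp18, the protease that removes ISG15 and blocks the type I receptor, rose by 9.32, from 5 WT arrays above background to 6. The other leading rises were the brakes Socs1 (1.45) and Ptpn2 (1.19). Tyk2, the kinase on the type I receptor, fell by 1.16, Socs3 by 1.02 and Il10rb, a receptor chain of interferon lambda and interleukin 10, by 0.88.

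Of the other STAT and IRF factors, 6 of 9 rose and 2 fell, with a median of 0.54. Irf5, a factor downstream of Toll-like receptors, rose by 2.76 and Stat5b by 1.03. Stat3 fell by 0.78.

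Partners of the RNA sensors rose in 18 and fell in 6 of 32 cases, with a median of 0.31, but 9 rose and 6 fell with the deposited matrix. Tlr7, the endosomal receptor of single-stranded RNA, was well above background on 0 WT and 6 HDAC4&5 arrays and at least 42.9-fold higher (adjusted p = 2.27e-13). Ddx60, a helicase linked to RIG-I, rose by 4.28 and Tlr3, the endosomal receptor of double-stranded RNA, by 2.31, each with 1 of 6 WT arrays above background. Nlrx1, a mitochondrial inhibitor of MAVS signalling, fell by 1.88, Tnfaip3, the ubiquitin-editing brake A20, by 1.51 and Prkra, an activator of the kinase PKR, by 0.77. The adaptor Mavs itself rose by 0.46.

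Partners in DNA sensing and of ZBP1 rose in 13 and fell in 2 of 20 cases, with a median of 0.47, but 8 rose and 1 fell with the deposited matrix. Ifi205, of the AIM2-like family, was well above background on 0 WT and 6 HDAC4&5 arrays and at least 31.9-fold higher (adjusted p = 6.28e-12). Cgas, the enzyme that makes the second messenger of cytosolic DNA, rose by 3.90 and Ifi204 by 2.07. Enpp1, which breaks down that messenger, was above background on 6 WT and 0 HDAC4&5 arrays and at least 5.40-fold lower (adjusted p = 2.73e-05). Rnaseh2b fell by 0.26. Of the necroptosis partners of ZBP1, Mlkl rose by 1.47 and Ripk3 did not pass, at -0.12 ± 0.14.

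Targets of interferon moved furthest, 45 of 46 rising and 1 falling, 43 of the rises by at least 2-fold. The median was 5.74, or 5.64 with the 8 genes that were above background in 1 group only set at their bounds. Bst2 and Ccl5 were saturated on 6 HDAC4&5 arrays, Rtp4 on 5 and Ifitm3 on 3, so their differences may be too small. Oas2, which makes the activator of RNase L, rose by 10.36, with 1 WT array above background, and Psmb8, an immunoproteasome subunit, by 9.69, with 2. Iigp1, a GTPase that attacks vacuoles of parasites, was on 0 WT and 6 HDAC4&5 arrays and at least 383-fold higher (adjusted p = 3.43e-11). Ifitm1, which blocks viral entry at the membrane, was the gene that fell, by 3.49.

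**Figure D3:**
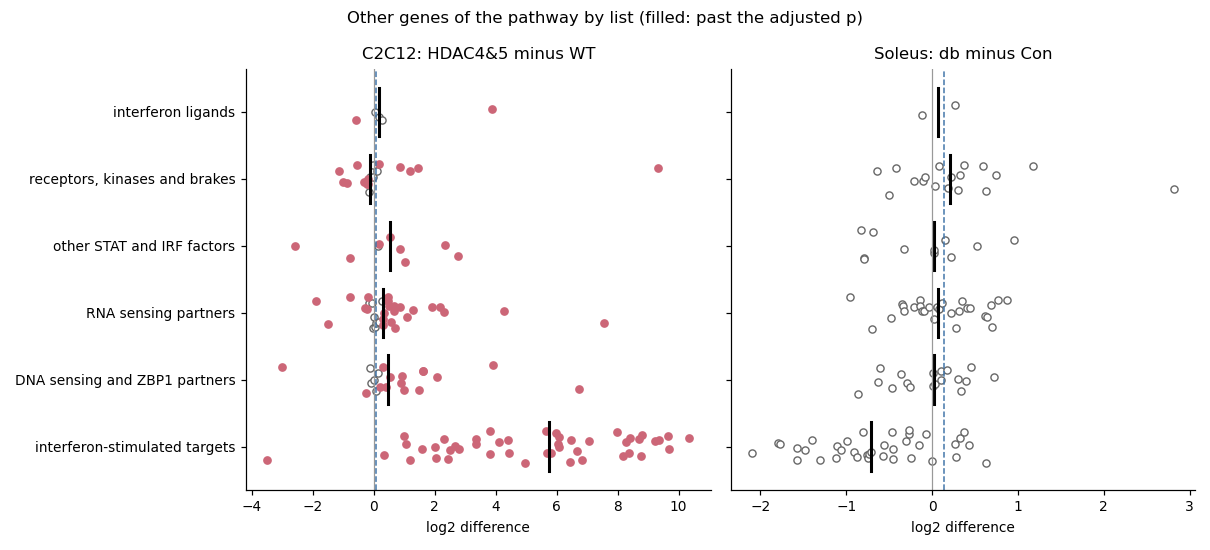
Log2 difference (x axis) of each list gene (points, y axis by list, spread vertically for clarity) in C2C12 cells (left) and soleus muscle (right). Filled points passed the adjusted p of 0.05, black bars are list medians and the dashed line is the median of all genes tested. In C2C12 cells 45 of 46 targets passed as higher. In soleus 0 list genes passed and 31 of 37 targets lay below 0, as did 5085 of all 13101 genes.

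Leukocyte markers were also compared, since leukocytes express these sensors. The summed linear level of 18 leukocyte markers was 2.40 to 3.13 in WT and 6.74 to 8.69 in HDAC4&5 samples, on a scale where 1 is the array's 75th percentile. Ptprc, Csf1r, Itgam, C1qa and C1qc were well above background on no C2C12 array, and 10 of 18 markers were on none in each group. Others of the list were above it, with 4 markers on every WT array and 3 on every HDAC4&5 array. Cd68 was on all of them at mean levels of -2.25 in WT and -2.64 in HDAC4&5 samples, and C1qb at -3.96 and -3.65. Cd3e was on 6 WT and 5 HDAC4&5 arrays, and Fcgr1 on 0 and 2. Cd14 made up most of both sums, with a log2 level of 1.16 in WT and 2.82 in HDAC4&5 samples. The summed levels of endothelial and adipocyte markers stayed at or below 0.275 in both groups.

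In soleus muscle the groups overlapped for all 9 genes. Of the 13101 genes tested, 1 passed as higher (0.00763%) and 1 as lower (0.00763%), and 0 of the 7 members in the test were among them. With slide as a block 57 genes passed and with the replicate block 7, again with 0 members. None of the 7 passed at an unadjusted p under 0.05 in limma or in the methods' t-test after adjustment. Groups did not overlap for 6.85% of all genes on the higher side and 2.89% on the lower side, and for 0 of these 7 on either. Irf7 and Ddx58 were left out of the test, being well above background on 2 of 3 Con and 3 of 4 db arrays. In whole muscle, fewer cells of a type cannot be told apart from less RNA per cell.

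All 7 tested members had a db mean below the Con mean, where 5085 of the 13101 genes did and the median gene was 0.14 higher in db samples. This did not hold with slide as a block, where Dhx58 was at 0.04 and Irf3 at 0.06. In the deposited matrix the columns labelled db replicates 1 and 2 hold the values of the arrays labelled db replicates 3 and 4, so the numbering of the db arrays is uncertain, and values of single arrays here follow the sample labels. The largest difference was that of Ifih1. Its levels were 0.28, 0.75 and -0.22 on the Con arrays and 0.03, -0.38, -0.50 and -1.12 on the db arrays. The difference was -0.76, with a 95% interval of -1.66 to 0.14, and with slide as a block it was -0.65. This interval and those below come from the fit without slide, so they include the spread between slides. Intervals with slide as a block are not given here. The db arrays reached lower than the Con arrays, and 1 db array lay within their range.

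Irf1 stood at 3.10, 3.63 and 3.04 in Con and at 2.96, 2.58, 3.05 and 2.47 in db muscles. The difference was -0.49 (95% interval -1.24 to 0.26), with 1 db array just above the lowest Con array. Irf9 stood at -1.09, -0.86 and -0.45 in Con and at -1.56, -1.83, -0.91 and -0.90 in db muscles, a difference of -0.50 (-1.34 to 0.34). For both genes the lowest values were db arrays and the highest were Con arrays.

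Stat2 stood at -1.94, -0.54 and -1.46 in Con and at -2.56, -1.99, -0.88 and -1.29 in db muscles, a difference of -0.37 (-1.54 to 0.80). Within slides this difference was -1.04 on the first and 0.37 on the second, so its direction turned. Zbp1, at -2.82, -2.86 and -2.15 in Con and -3.69, -3.30, -1.91 and -2.33 in db muscles, differed by -0.20 (-1.32 to 0.92), and by -0.66 and 0.03 within the slides. The lowest Zbp1 value, of db replicate 1, was not well above background.

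Dhx58 stood at -2.31, -1.66 and -3.29 in Con and at -2.28, -2.28, -2.70 and -2.81 in db muscles, a difference of -0.09 (-1.08 to 0.89), and of -0.29 and 0.54 within the slides. Irf3 stood at 3.97, 4.24 and 3.60 in Con and at 4.25, 4.00, 3.96 and 3.50 in db muscles, a difference of -0.01 (-0.77 to 0.75), and of 0.02 and 0.13 within the slides. These values show no separation in either gene.

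Irf7 was listed at -3.29, -2.71 and -3.45 in Con and at -2.27, -3.37, -3.94 and -4.06 in db muscles. Ddx58 was listed at -2.92, -3.33 and -2.37 in Con and at -3.20, -3.43, -2.64 and -2.11 in db muscles. Both genes ran near background in muscle, and the groups overlapped.

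**Figure D4:**
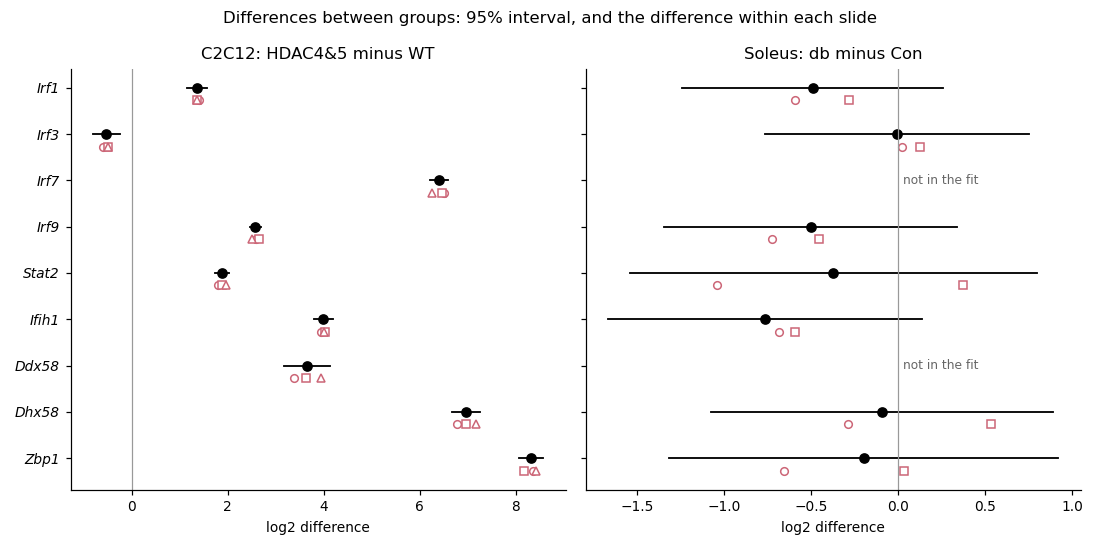
Log2 difference between groups (x axis) for each gene (y axis) in C2C12 cells (left) and soleus muscle (right). Black points are the differences with 95% intervals from limma, and open circles, squares and triangles the differences within slides 1, 2 and 3. All intervals in soleus span 0 in this fit, which had no slide term. Within slides Stat2, Dhx58 and Zbp1 lay on both sides of 0.

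Of the 114 pathway list genes tested in soleus, 0 passed the adjusted p in limma and 0 in the methods' t-test after adjustment. An unadjusted p under 0.05 in limma was reached by 14 of them, 4 higher and 10 lower in db muscles, and by 777 of all 13101 genes. The targets of interferon had a median of -0.72, with 31 of 37 below 0, where 5085 of all 13101 genes were. Of these 37, 8 had an unadjusted p under 0.05, all 8 lower. The lists were drawn up with earlier results known, so nothing is read from these counts. The medians of the other lists lay between 0.02 and 0.21, beside 0.14 for all genes. With slide as a block, 1 list gene passed, Ifnlr1, a receptor chain of interferon lambda, at 2.57 ± 0.39 (adjusted p = 0.0361), from 1 of 3 Con and 4 of 4 db arrays above background. The summed level of the leukocyte markers was 12.2 to 27.5 in Con and 17.5 to 45.5 in db muscles, and that of the endothelial markers 17.8 to 29.1 and 9.17 to 22.6. The part of these cells in the soleus values was not tested.

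The order of the 4 groups differed from gene to gene, although cells and muscle lay on separate slides and tissue cannot be told apart from slide. HDAC4&5 cells were highest for each gene but Irf3, with no overlap with the next group. Ifih1, Dhx58 and Zbp1 were lowest in WT cells, and for these 3 genes the WT arrays did not overlap with either muscle group. For Irf1 and Stat2 the WT cells were second, above both muscle groups without overlap, and for Irf9 and Ddx58 they were second with overlap. Irf7 was lowest in WT cells but overlapped with db muscle. Background itself stood higher on this scale in muscle. The second Dhx58 probe, above background on no array, had a mean of -7.67 in WT cells and -5.56 in Con muscle. For Myf5, also on no array, the means were -7.69 and -5.57. How far this sets the order of genes that are dim in WT cells was not tested. Irf3 ran from 4.64 in WT cells through 4.11 in HDAC4&5 cells to 3.94 in Con and 3.93 in db muscle, each overlapping with the next.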

How the data were processed

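Each of the 19 arrays was scanned by the authors, who deposited an intensity for each spot from Agilent Feature Extraction 9.5.1.1, as mean, background and processed (background-subtracted) intensity. In a further matrix from the authors, the deposited values of all 12 C2C12 columns are the ratio of the processed intensity of the same array to 1 array-wide constant, within 0.01 on the log2 scale for 95% of probes. Of the 7 soleus columns, 1 matched its own array in this way, 2 matched another array (db replicates 1 and 2 those of db replicates 3 and 4) and 4 matched none, and it entered as group values alone. The labels name biotin as the dye, while the labelling protocol names Cy3 on 100 ng of RNA.

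Members and lists were chosen with earlier results of these data known. Control spots and outlier spots were left out, spots of a probe were averaged, and processed intensities were taken to log2 and scaled so that the 75th percentile over the probes of an array was 0. Symbols of non-members were updated through RefSeq accessions for 27198 of 41174 probes, which changed 2694. To enter a comparison, a probe had to be well above background throughout at least 1 of both groups, and its gene was represented by the brightest such probe. Tests were run in R 4.3.3 with limma 3.58.1 (lmFit and eBayes), two-sided, at a Benjamini-Hochberg adjusted p of 0.05, each tissue on its own. The number of arrays limits the precision. All probes of the members are described. In each list up to 3 rises and 3 falls with the largest change past the adjusted p in C2C12 cells are named, and so are list genes past it in soleus. Mavs, Mlkl, Ripk3 and Ifnlr1 were added after their values were seen. For likeness the 2 genes with the highest correlation are named. The marker lists were muscle fibre, myoblast, leukocyte, endothelial, adipocyte and erythrocyte. The results of 2 genes, counted within the lists, are not reported here. Of the steps, the limma fit alone was tested on simulated data, which held no difference between slides.

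Whether replicate numbers pair the samples was checked on deviations from the group means. Their correlation across genes was 0.193 to 0.557 in the 6 same-numbered C2C12 pairs and 0.402 to 0.689 in the 3 such soleus pairs. It was 0.222 to 0.532 and 0.318 to 0.745 for differently numbered arrays of a slide, and -0.474 to 0.0486 and -0.649 to -0.391 for arrays of different slides. A number therefore stands for a slide as much as for a pair. Replicates correlated across genes at 0.988 or above in C2C12 cells and at 0.832 or above in soleus, and none were duplicates. The settings varied were the scaling (quantile), the background correction (normexp, offset 50), the source of the values (the deposited matrix), the filter on dim probes (none, or both groups), the probes of a gene (their mean), a slide block or a replicate block, the methods' unpaired t-test, and the arrays included (each left out once). No genome of the build of the probe positions was used here, so exons were not annotated.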

Additional observations from a re-analysis of the deposited data

Results flagged for a closer look

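Zbp1 on the array of WT replicate 4 stood at -3.84, away from the other 5 WT arrays, the nearest of which was at -4.40. The gap was 0.733 of the range of the group. Of 27 groups of 4 or 6 arrays looked at for the 9 genes, this was the 1 set apart, and chance sets apart about 1 in 20, that is 1.35. It was still far below the lowest HDAC4&5 array, at 3.85.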

How the results depend on the processing

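In C2C12 cells all 24 alternatives kept the direction of each of the 9 genes, and the counts of all genes, of members and of all list genes past the adjusted p stayed within 1.5 times. Normexp with an offset of 50 gave the smallest differences for genes dim in WT cells, 6.78 for Zbp1, 5.26 for Dhx58 and 5.09 for Irf7. With the deposited matrix the rises among partners of the RNA sensors went from 18 to 9 and among those of DNA sensing from 13 to 8; 2793 genes were higher and 4441 lower, where 5164 and 4325 had been, that is 38.6% higher against 54.4% in the comparison as reported, and the median gene moved from 0.08 to -0.11. Its difference for Irf3 was -0.73 and for Irf1 1.17. The replicate block gave 10762 of 14150 genes in C2C12 cells and moved the list calls from 88 to 93 higher and from 20 to 21 lower, among them the interferon ligands from 1 to 2 higher; no member changed its call.

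In soleus, where 2 genes passed, the count was 0 with normexp, 0 with the deposited matrix, 0 with the filter on both groups, 1 with no filter, 1 with the methods' t-test, 57 with slide as a block and 7 with the replicate block. It was 0 to 4 with each array left out in turn, 0 without Con replicate 1 or 2 and 4 without db replicate 1; the cause was not tested. Among list genes, 1 was higher with slide as a block and 0 as reported. Members past the adjusted p in soleus stayed at 0 in all of these. Ifih1, Irf1 and Irf9 kept their sign in all 18 alternatives, Stat2 in 16 of 18, Zbp1 in 14 of 17, Dhx58 in 13 of 18 and Irf3 in 11 of 18. The median of the interferon targets was -0.41 with normexp and -0.42 with the deposited matrix. In soleus the replicate block follows the sample labels, whose db numbers are uncertain.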
